A study of Arabidopsis thaliana with 9 samples.

Results

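Plant defensins are small secreted peptides held in a compact fold by disulfide bonds between conserved cysteines, and many of them inhibit the growth of fungi. In Arabidopsis the *PDF1* genes include those switched on by jasmonate and ethylene during defence, whereas *PDF2* genes are mostly expressed without infection in a range of organs. Defensin-like genes encode further cysteine-rich secreted peptides and often lie side by side on a chromosome. At4g22212, a gene that was placed with the defensin-like genes here, has no gene symbol in the gene table used. The genes described were 10 listed defensin and defensin-like loci, namely At4g22212 (AT4G22212) with its listed cluster partners AT4G22217, AT4G22230 and AT4G22235 on chromosome 4, *PDF2.2* (AT2G02100), *PDF2.1* (AT2G02120) and *PDF2.3* (AT2G02130) on chromosome 2, *PDF2.5* (AT5G63660) on chromosome 5, and *PDF1.1* (AT1G75830) and *PDF1.4* (AT1G19610) on chromosome 1. They were chosen by family, with their differences between Cvi and L*er* on these same arrays in view. Of these, 7 had a probe set of their own among the 22746 that were tested on the array. For the other loci, At4g22217, At4g22230 and At4g22235, no probe set is named here, and they were not analysed here.

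Hybridization signals came from Affymetrix ATH1 arrays of root tips of 3 genotypes of *Arabidopsis thaliana*, with 3 biological replicates each. The genotypes were the Cape Verde Islands accession (Cvi, labelled Cvi-1), the near isogenic line 170G-55-16 (NIL), or HGI2.1, and the accession Landsberg *erecta* (L*er*, labelled L*er*-2). The NIL is a single line, and the parts of its genome that come from each accession are not given in the sources used here. Each replicate was a pool of about 600 root tips, cut at about 7 mm from 5-d-old seedlings that had spent 2 d on upright plates and 3 d on plates tilted by 30°, and no chemical treatment is named for any genotype.

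The root hair genes *EXPA7* and *EXPA18*, which encode wall-loosening expansins, were the only entries of the marker lists of root and shoot cell types that could be named on the array. They had signals of 862 to 1348 and of 1188 to 1556 on the 9 arrays, and neither was called in any comparison of all 9 arrays. The other entries of these lists, for root cap, meristem, endodermis, stele and shoot photosynthesis, were not analysed here. Cvi array 1 stood apart from the other Cvi arrays. At least a 2-fold distance from the rest of its group was seen for 4.55% of its probe sets, against at most 0.202% on any other array, and 3.47% of probe sets were at least 2-fold lower on it. The main results that rest on the Cvi arrays are therefore given with and without that array. The array's RNA controls, which probe actin, GAPDH and ubiquitin at both transcript ends, also separated all 3 Cvi arrays from the other 6. In 5 of the 6 control pairs the log2 ratio of the 3′ to the 5′ signal did not overlap between Cvi and the other arrays. It was −2.65 to −2.10 in Cvi, against 0.89 to 1.099 in the NIL and L*er*, for one actin pair and 1.22 to 2.12 against 2.48 to 2.98 for the other. For ubiquitin it was 1.71 to 2.07 in Cvi, against 0.96 to 1.32 elsewhere, in one pair and 0.52 to 0.75 against 0.11 to 0.26 in the other, and 1 of the 2 GAPDH pairs was also higher in Cvi. These ratios move with every difference between Cvi and another genotype given here, and their part in those differences was not tested. In pools of root tips, fewer cells of a type and less RNA per cell cannot be told apart.

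At4g22212 had a very low signal in Cvi root tips and a high one in the NIL and L*er*. Its signal was 18.2, 23.9 and 22.5 on the Cvi arrays, 3218, 3008 and 2937 on the NIL arrays, and 3686, 3270 and 3020 on the L*er* arrays. Every Cvi array was below every other array by 2 orders of magnitude, and the NIL arrays overlapped with those of L*er*. Mean log2 signals (± SD, n = 3 arrays) were 4.42 ± 0.20 in Cvi, 11.58 ± 0.07 in the NIL and 11.69 ± 0.14 in L*er*. The Cvi mean lay below 5.37, the log2 signal under which a probe set counts as dim here (1 in 3 of all probe sets by mean signal), and detection calls were not used, so a level of this gene in Cvi cannot be stated.

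**Figure D1:**
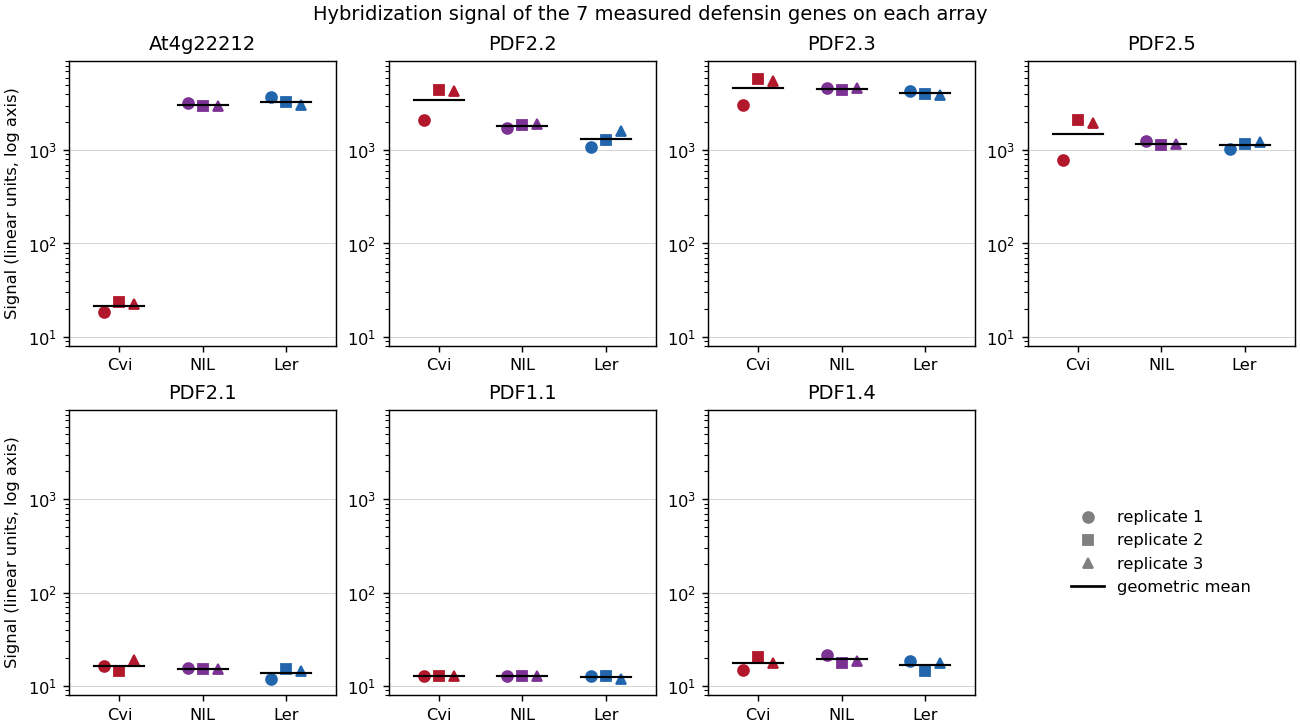
Hybridization signal (linear units on a log axis) of each of the 7 measured defensin genes on the 3 Cvi, 3 NIL and 3 L*er* arrays. Symbols mark the replicate and lines the geometric mean of a genotype. At4g22212 is at 18.2 to 23.9 in Cvi and at 2937 to 3686 in the NIL and L*er*, *PDF2.2* is above the L*er* arrays on every Cvi array, and *PDF2.1*, *PDF1.1* and *PDF1.4* are near the bottom of the scale in all genotypes.

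Because of how the defensin genes were chosen, their Cvi minus L*er* differences are a description with no test. At4g22212 differed by −7.28 on the log2 scale (standard error 0.13, 95% confidence interval −7.55 to −7.00), a ratio of 155-fold between the deposited signals. The ratio depends on how the low Cvi signal is treated, and with 16 added to every signal it was 88.9-fold (difference −6.47). Without Cvi array 1 the deposited signals gave 143-fold. Whether sequence changes of Cvi under the probes contribute was not tested.

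The NIL was compared with L*er* and with Cvi to place its defensin signals between those of the accessions. The L*er* arrays were in view when the genes were chosen, so the NIL minus L*er* p-values of the defensin genes are not free of that choice. In limma the NIL minus L*er* difference of At4g22212 was −0.12 (adjusted p = 1.00, standard error 0.13, 95% confidence interval −0.40 to 0.16), and an exact two-sided permutation test gave p = 0.2, where 3 arrays against 3 allow no p below 0.1. The NIL minus Cvi differences of the defensin genes rest on the Cvi arrays that were in view when the genes were chosen, so they too are a description, with no p given. The At4g22212 signal was higher in the NIL than in Cvi by 7.16 on the log2 scale (standard error 0.13, 95% confidence interval 6.88 to 7.43). This was a ratio of 143-fold between the deposited signals, 132-fold without Cvi array 1 and 81.9-fold with 16 added to every signal.

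**Figure D2:**
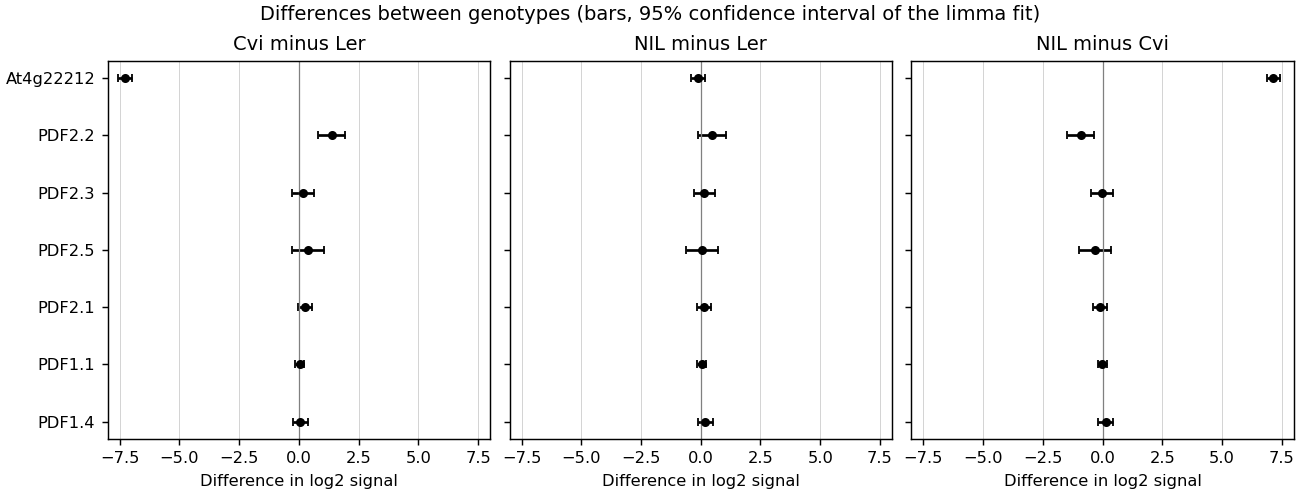
Difference in log2 signal of each of the 7 measured defensin genes for Cvi minus L*er*, NIL minus L*er* and NIL minus Cvi. Points are differences of group means and bars the 95% confidence interval of the limma fit to all 9 arrays. At4g22212 differs by −7.28 between Cvi and L*er* and by 7.16 between the NIL and Cvi, while in this fit the NIL minus L*er* intervals of all 7 genes include 0.

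At4g22212 ranked 1 of the 22746 probe sets by size of the difference, both between Cvi and L*er* and between the NIL and Cvi. That the measured genes around it on chromosome 4 differed less was therefore fixed in advance, and nothing is read from it. A gene counts as measured here if a probe set is named for it alone. For 8730 probe sets no gene is named, so closer genes may lie among them. Gene order places 2 protein-coding genes between At4g22212 and At4g22190, the nearest measured gene on one side. It also places 2 between At4g22212 and *ISU1*, the nearest on the other side, which encodes a scaffold for iron-sulfur cluster assembly. The listed defensin-like locus At4g22217 is one of the genes between At4g22212 and *ISU1*, and *ISU1* separates it from At4g22230 and At4g22235. At4g22190 had signals of 655, 699 and 704 in Cvi and 503, 656 and 614 in L*er*, a difference of 0.22 that did not pass the test (adjusted p = 0.272). *ISU1* had 650, 1107 and 1277 in Cvi and 1340, 1415 and 1376 in L*er*, a difference of −0.50 that did not pass either (adjusted p = 0.153), with Cvi array 1 as the lowest value. Without that array the *ISU1* difference was −0.21.

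Among the 30 measured neighbours, 15 on each side, 8 were called between Cvi and L*er* at an adjusted p under 0.05, where 13.0% of all probe sets were called. They were 2 higher and 6 lower genes. The neighbours' differences spanned −1.18 to 1.44 with a median of 0.000512, beside a median of 0.01 over all probe sets. At4g22110 had 775, 609 and 643 in Cvi and 243, 252 and 247 in L*er* (difference 1.44, adjusted p = 1.14e-05). At4g22390 had 53.4, 39.2 and 25.0 in Cvi and 15.5, 14.6 and 11.98 in L*er* (difference 1.43, adjusted p = 0.00202), all at low signals. Whether its probe set, whose name ends in _s_at, also takes up other transcripts was not tested. Cvi and L*er* arrays did not overlap for At4g22110 or At4g22390, as for 27.2% of all probe sets.

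The lower neighbours were At4g22000, *APG8A*, At4g22250, *ATCES1*, *PRXR1* and At4g22280. At4g22000 had 129, 231 and 262 in Cvi and 439, 459 and 450 in L*er* (difference −1.18, adjusted p = 0.00655). *APG8A*, which encodes an ATG8 protein of autophagosome membranes, fell by 0.71 (adjusted p = 0.00507), and the ceramidase gene *ATCES1* fell by 0.50 (adjusted p = 0.0150). The peroxidase gene *PRXR1* fell by 0.40 (adjusted p = 0.0210), At4g22250 by 0.69 (adjusted p = 0.0313) and At4g22280 by 0.38 (adjusted p = 0.0421). Of 16 fits, the one reported and its alternatives, At4g22280 was called in 5, At4g22250 in 9, *PRXR1* and *ATCES1* in 12 each, and At4g22000, *APG8A* and At4g22110 in 16. At4g22390 was called in 15, and it has no value in the fit without dim probe sets. These 8 neighbours were still called without Cvi array 1, with differences of −0.87 for At4g22000, −0.44 for At4g22250, 1.34 for At4g22110 and 1.17 for At4g22390. At4g22380 was then called too, as higher in Cvi by 0.57 (adjusted p = 0.00769), where 23.7% of all probe sets were called.

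Of the 30 neighbours, 0 were called between the NIL and L*er* in limma, where 0.356% of all probe sets were called. At an unadjusted p under 0.05 the count was also 0, where 874 of all 22746 probe sets passed, and the neighbours' differences spanned −0.27 to 0.15. Between the NIL and Cvi, 5 were called, where 10.8% of all probe sets were called. At4g22000, At4g22250 and *ATCES1* were higher in the NIL than in Cvi by 1.28, 0.73 and 0.47 (adjusted p = 0.00485, 0.0271 and 0.0253), and At4g22390 and At4g22110 were lower by −1.45 and −1.33 (adjusted p = 0.00212 and 2.63e-05). These 5 genes were still called without Cvi array 1, and so was At4g22380, as lower in the NIL (difference −0.45, adjusted p = 0.0333), where 17.7% of all probe sets were called. The counts between Cvi and L*er* and between the NIL and Cvi rest on the same Cvi arrays.

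**Figure D3:**
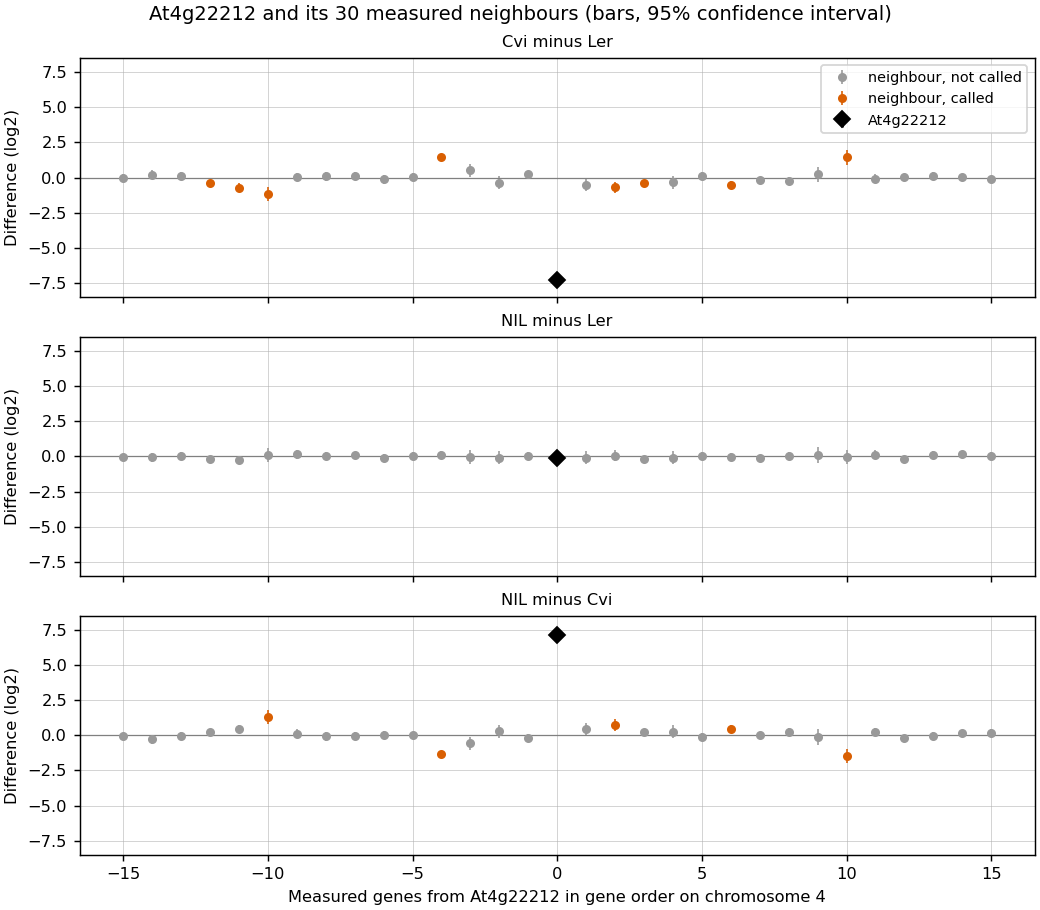
Difference in log2 signal of At4g22212 and of its 30 measured neighbours, plotted by their place in gene order on chromosome 4, for Cvi minus L*er*, NIL minus L*er* and NIL minus Cvi. Bars are 95% confidence intervals of the limma fit and coloured points the neighbours called at an adjusted p under 0.05. The neighbours lie between −1.18 and 1.44 for Cvi minus L*er*, and 0 of 30 are called for NIL minus L*er*.

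Over the 9 arrays, the genes outside the defensins with the pattern most like that of At4g22212 were At1g34510, At3g22570, At1g33750, At5g47980 and At4g13860. Pearson's r of their log2 signals with that of At4g22212 was 0.998 to 0.999, among 575 probe sets of 1 gene whose group means spanned at least 1 on the log2 scale. These coefficients are a description, since the arrays of a genotype share its level and r then follows the gap between Cvi and the others. At1g34510 had a mean log2 signal of 3.62 in Cvi, 9.04 in the NIL and 9.27 in L*er*. At5g47980, with the smallest gap of these genes, had 9.68 in Cvi, 12.07 in the NIL and 12.15 in L*er*. For the other 6 measured defensin genes of the list r ran between −0.82 for *PDF2.2* and 0.11 for *PDF1.4*.

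In contrast to At4g22212, *PDF2.2*, a class 2 defensin gene, had its highest signals in Cvi. Its signal was 2120, 4379 and 4329 in Cvi, 1718, 1855 and 1916 in the NIL, and 1088, 1299 and 1620 in L*er*. Each Cvi array was above each NIL array, and each NIL array above each L*er* array, with Cvi array 1 close to the NIL. Mean log2 signals (± SD, n = 3 arrays) were 11.74 ± 0.60 in Cvi, 10.84 ± 0.08 in the NIL and 10.36 ± 0.29 in L*er*.

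Between Cvi and L*er*, *PDF2.2* differed by 1.38 (standard error 0.26, 95% confidence interval 0.81 to 1.94), a 2.60-fold higher signal in Cvi that ranked 471 of the 22746 probe sets by size. It was 3.30-fold higher without Cvi array 1, a setting in which the 3′ to 5′ control ratios of Cvi still stood apart. With At4g22212 it was 1 of 2 measured defensin genes that differed at least 2-fold, which 3.95% of all probe sets did. The Cvi and L*er* arrays did not overlap for these genes either, as for 27.2% of all probe sets. Nothing is read from these shares, since this comparison chose the genes.

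Between the NIL and L*er*, *PDF2.2* differed by 0.47 (adjusted p = 1.00 in limma, standard error 0.26, 95% confidence interval −0.09 to 1.04). The L*er* arrays were in view when *PDF2.2* was chosen, so nothing is read from the p-values and intervals given here. The NIL arrays lay above the L*er* arrays without overlap, as for 4.25% of all probe sets, and the exact permutation test gave p = 0.1, the smallest it allows. The standard error of this fit is shared by all 9 arrays, and the spread of *PDF2.2* among the Cvi arrays widened it. Without Cvi array 1 the same difference had a standard error of 0.12 and a 95% confidence interval of 0.20 to 0.74 (adjusted p = 0.133 in limma), and in a fit to the NIL and L*er* arrays alone the interval was 0.18 to 0.77 (adjusted p = 0.212 in limma). These intervals leave out 0, while the adjusted p passed the threshold in none of the 16 fits. Leaving out L*er* array 1, 2 or 3 in turn gave differences of 0.33, 0.46 and 0.62. Their 95% confidence intervals were −0.32 to 0.98, −0.24 to 1.16 and −0.03 to 1.27, which include 0. Between the NIL and Cvi *PDF2.2* differed by −0.91 (standard error 0.26, 95% confidence interval −1.47 to −0.34), a lower signal in the NIL, and by −1.25 without Cvi array 1.

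*PDF2.3*, which lies next to *PDF2.1* and near *PDF2.2* on chromosome 2, was bright in all genotypes. Its signal was 3037, 5762 and 5515 in Cvi, 4595, 4407 and 4594 in the NIL, and 4339, 3982 and 3893 in L*er*. Cvi array 1 was below all other arrays, and Cvi arrays 2 and 3 above all others. The Cvi minus L*er* difference was 0.17 (standard error 0.21), and 0.47 (standard error 0.09) without Cvi array 1, a 1.39-fold higher signal in Cvi. The NIL minus L*er* difference was 0.16 (standard error 0.21, adjusted p = 1.00 in limma). Each NIL array was above each L*er* array, as for 4.25% of all probe sets. The exact permutation test gave p = 0.1, the smallest that 3 arrays against 3 allow. The NIL minus Cvi difference was −0.02 with all arrays and −0.32 without Cvi array 1.

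*PDF2.5*, which has been linked to cadmium tolerance, showed the same split among the Cvi arrays. Its signal was 779, 2099 and 1949 in Cvi, 1239, 1129 and 1151 in the NIL, and 1032, 1158 and 1228 in L*er*. The NIL and L*er* arrays overlapped, Cvi array 1 was below all of them and the other Cvi arrays above all of them. With all arrays *PDF2.5* differed by 0.37 between Cvi and L*er* (standard error 0.30, 95% confidence interval −0.30 to 1.05), by 0.04 between the NIL and L*er* (standard error 0.30, adjusted p = 1.00) and by −0.33 between the NIL and Cvi. Without Cvi array 1 it differed by 0.83 between Cvi and L*er* (standard error 0.10), a 1.78-fold higher signal in Cvi, and by −0.79 between the NIL and Cvi. In that setting 17.7% of all probe sets were called between the NIL and Cvi in limma. The root hair gene *EXPA7* was among them as lower in the NIL, with a difference of −0.48 (adjusted p = 0.00438). *EXPA18*, the other measured root hair gene, differed by −0.05 and was not called (adjusted p = 0.799 in limma). The part of root hair cells in the *PDF2* differences was not tested.

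The bright *PDF2* genes were thus among the probe sets in which Cvi array 1 departed from its group. Array 1 was below the mean of Cvi arrays 2 and 3 by 1.38 on the log2 scale for *PDF2.5*, by 1.04 for *PDF2.2* and by 0.89 for *PDF2.3*. Only 0.558%, 3.08% and 4.93% of all probe sets had a lower value of this difference. For At4g22212 and *PDF1.4* array 1 was lower by 0.34 each. The root hair genes *EXPA7* and *EXPA18* were lower on it by 0.38 and 0.33. Of the 6 pairs of 3′ and 5′ control probe sets, 1 GAPDH pair gave array 1 a ratio outside the range of the other 8 arrays. The part of these values in the *PDF2* differences was not tested.

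**Figure D4:**
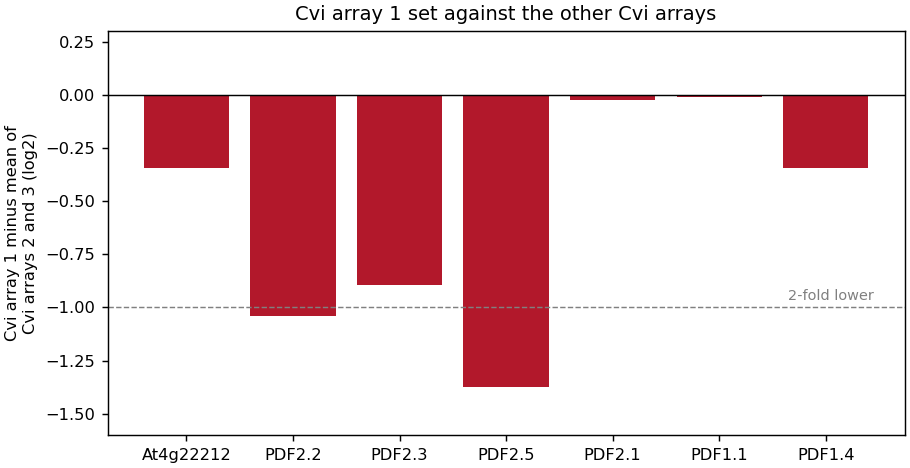
Cvi array 1 minus the mean of Cvi arrays 2 and 3, in log2 signal, for each of the 7 measured defensin genes. The dashed line marks a 2-fold lower signal on array 1, which *PDF2.5* (−1.38) and *PDF2.2* (−1.04) pass.

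*PDF2.1*, *PDF1.1* and *PDF1.4* were dim in every genotype. *PDF2.1*, the neighbour of *PDF2.3*, had a geometric mean of 16.4 in Cvi, 15.1 in the NIL and 13.7 in L*er*, and a highest signal of 19.1. *PDF1.1*, best known from seeds, had 11.9 to 12.8 on all 9 arrays. *PDF1.4* had 14.96, 20.5 and 17.6 in Cvi, 21.6, 17.6 and 18.5 in the NIL, and 18.4, 14.6 and 17.6 in L*er*. The arrays of the genotypes overlapped for each gene, and their differences were at most 0.26 in size in the 3 comparisons. Each had a signal that was repeated to the last digit on more than 1 array, for *PDF1.1* on 3 arrays, as 43.0% of all probe sets had and 56.4% of the dim ones. None of them was called between the NIL and L*er*, which does not show that a difference is absent.

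Counted together, 0 of the 7 measured defensin genes were called between the NIL and L*er* in limma, where 0.356% of all probe sets were called. At an unadjusted p under 0.05 the defensin genes numbered 0 too, where 874 of all 22746 probe sets passed. With 7 genes this does not show that a difference is absent. The lowest unadjusted p in limma's fit across all probe sets was 0.0935, for *PDF2.2*, beside the exact permutation p of 0.1. At the unadjusted threshold the count was 1, *PDF2.2*, without Cvi array 1, in the fit to the NIL and L*er* arrays alone and with the replicate number as a block, in limma's fits across all probe sets, beside the same exact permutation p of 0.1. Between the NIL and Cvi 2 of 7 were past the threshold in limma, At4g22212 as higher and *PDF2.2* as lower in the NIL, where 10.8% of all probe sets were called, 5.23% as higher and 5.61% as lower. The NIL and Cvi arrays did not overlap for these genes, as for 26.5% of all probe sets. Without Cvi array 1 the count was 4 of 7, with *PDF2.5* and *PDF2.3* as the further lower genes, where 17.7% of all probe sets were called, and without any other single array it was 1. Nothing is read from these counts, nor from those between the NIL and L*er*, since the Cvi and L*er* arrays were in view when the genes were chosen. The median difference of the 7 genes was 0.14 between the NIL and L*er* and −0.02 between the NIL and Cvi, beside −0.02 over all probe sets in both comparisons.

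None of the other defensin and defensin-like genes passed the test. The 7 that were named on the array were *PDF1.2*, *PDF1.2b*, *PDF2.4*, *PDF2.6*, *LCR24*, *LCR59* and *LCR80*, all dim in every genotype. In limma 0 of 7 were called in any of the 3 comparisons. Of all probe sets 13.0% were called for Cvi minus L*er*, 0.356% for NIL minus L*er* and 10.8% for NIL minus Cvi. None of the 7 had an unadjusted p under 0.05 in limma, which 5670, 874 and 5312 of the 22746 probe sets had. For 7 dim genes this does not show that a difference is absent. Their differences spanned −0.04 to 0.19 between Cvi and L*er*, −0.11 to 0.12 between the NIL and L*er* and −0.10 to 0.09 between the NIL and Cvi. *PDF1.2*, the defensin most used as a marker of the joint jasmonate and ethylene response, had 15.5, 17.3 and 16.7 in Cvi, 15.5, 14.6 and 16.6 in the NIL, and 13.1, 16.1 and 14.4 in L*er*. Its Cvi minus L*er* difference was 0.19 (standard error 0.11, adjusted p = 0.333). *PDF2.6* had 18.1, 22.7 and 24.0 in Cvi, 22.0, 24.0 and 22.4 in the NIL, and 18.05, 27.0 and 20.2 in L*er*, which overlap.

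Genes that act above or beside the defensins in defence were mostly not named on the array here. Of 14 listed jasmonate and ethylene regulators 1 was measured, *EIN3*, a transcription factor that activates ethylene responses. It had 1439, 889 and 929 in Cvi, 940, 947 and 982 in the NIL, and 1054, 1223 and 982 in L*er*, with a Cvi minus L*er* difference of −0.03 (adjusted p = 0.942) and Cvi array 1 as the highest value. Of 6 listed thionins, another group of small antimicrobial peptides, *THI2.1*, *THI2.2*, At1g66100 and At2g15010 were measured. Their Cvi minus L*er* differences spanned −0.20 to 0.03, and *THI2.1*, At1g66100 and At2g15010 were dim in every genotype. In limma 0 of these 5 genes, *EIN3* and the thionins, were called in any of the 3 comparisons or had an unadjusted p under 0.05. Of all probe sets 13.0% were called for Cvi minus L*er*, 0.356% for NIL minus L*er* and 10.8% for NIL minus Cvi. With 5 genes this does not show that a difference is absent. *THI2.2* had 30.2, 62.4 and 51.4 in Cvi, 48.4, 51.6 and 48.7 in the NIL, and 47.4, 45.0 and 42.7 in L*er*. Without Cvi array 1, the Cvi minus L*er* difference of *THI2.2* was 0.33 (adjusted p = 0.0367 in limma, standard error 0.10), and that of *EXPA7* was 0.39 (adjusted p = 0.0129 in limma), both as higher in Cvi. In that setting 23.7% of all probe sets were called. *EIN3*, the other measured thionins and *EXPA18* were not called there, with differences of −0.25 to 0.09. The listed genes of jasmonate synthesis, the jasmonate and ethylene markers and the salicylate markers were not analysed here.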

How the data were processed

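Root tips of Cvi, the NIL 170G-55-16 and L*er* were compared, with 3 arrays per genotype and groups taken from the labels. The deposited value is a linear hybridization intensity per probe set, already normalized between arrays by the authors. MAS5 and RMA stand in the submitters' processing notes with no version, and their roles are not given in the sources used here. Array medians were 110 to 122, and values were not normalized again. The number of arrays limits the precision, and depth does not apply.

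Genotype was the only term of a fit to log2 signals of all 9 arrays (lmFit and eBayes of limma 3.58.1, R 4.3.3), with Benjamini-Hochberg adjustment over 22746 probe sets after 64 controls were left out. Probe sets of the lowest 1 in 3 by mean log2 signal, under 5.37, are called dim. A call is an adjusted p under 0.05. The fit was tested on simulated data. Single genes were also tested by exact permutation.

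Platform annotation gave 1 gene for 13513 probe sets, several for 503 and none for 8730. The TAIR10.1 gene table served for locus tags, names and gene order only. Sequences were not analysed here. The defensin genes and the 11 lists, with 60 entries, were chosen with earlier results of these data known. Named were all measured defensin genes, called genes of the lists, called neighbours, and the 5 genes most like At4g22212. *ISU1*, At4g22190, *PDF1.2*, *PDF2.6*, *EIN3*, *THI2.2*, *EXPA7* and *EXPA18* were added to show context, and At4g22380 after its values were seen. The NIL minus Cvi test of the defensin genes was run as designed, but its p-values are not given, since their choice had those Cvi arrays in view. That choice had the L*er* arrays in view too, and the NIL minus L*er* p-values are given with that limit.

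Alternatives were quantile normalization, leaving out dim probe sets, the 6 arrays compared alone, the replicate number as a block, log2 of the signal plus 16, robust eBayes with a trend, and leaving out each array.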

Additional observations from a re-analysis of the deposited data

How the results depend on the processing

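At4g22212 kept its direction against Cvi under all alternatives, with a Cvi minus L*er* difference of −7.35 to −6.47 and a NIL minus Cvi difference of 6.36 to 7.24. *PDF2.2* differed between the NIL and Cvi by −1.25 to −0.73, and it was past the threshold in 6 of 16 fits. The defensins past the threshold between the NIL and Cvi numbered 1 with log2 of the signal plus 16 and 1 in the fit to only the 6 arrays compared. Of all probe sets 10.4% and 6.72% were called there. With arrays left out in turn the defensins past it numbered 1 to 4, with 4 without Cvi replicate 1 and 1 without any other. In those fits 6.86% to 17.7% of all probe sets were called. Nothing is read from these passes of the threshold, since the Cvi arrays were in view when the defensin genes were chosen. The fit to the 6 arrays also gave 4 called neighbours between Cvi and L*er* and 3 between the NIL and Cvi, where 8.55% and 6.72% of all probe sets were called. With arrays left out in turn, these were 4 to 9 (4 without L*er* replicate 1 or 2, and 5 without replicate 3) and 3 to 6 (3 without NIL replicate 1 or 2), where 8.05% to 23.7% and 6.86% to 17.7% of all probe sets were called. The called defence genes between Cvi and L*er* were then 0 to 1, the 1 being *THI2.2* without Cvi replicate 1, where 23.7% of all probe sets were called.

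Differences near 0 changed sign. *PDF1.1* differed between the NIL and Cvi by 0.00791 after quantile normalization and by −0.00619 to 0.00130 with arrays left out. *PDF2.3* ran over −0.32 to 0.15 between the NIL and Cvi, and *PDF2.5* over −0.024 to 0.10 between the NIL and L*er*. The cause of these changes was not tested. Leaving out dim probe sets removed *PDF2.1*, *PDF1.1*, *PDF1.4* and the other defensins, which have no value there. The deviations of same-numbered arrays from their group means correlated at −0.259 to 0.232. Arrays of different numbers were not set beside them, so these values cannot decide whether replicate numbers pair the arrays. With the replicate number as a block, 2 defensins were past the threshold between the NIL and Cvi, from which again nothing is read. The called neighbours then numbered 7 for Cvi minus L*er*, 0 for NIL minus L*er* and 5 for NIL minus Cvi. Of all probe sets 11.1%, 0.295% and 9.21% were called in these comparisons.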
